A study of Sus scrofa with 4 samples.

Results

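FBXO32 encodes atrogin-1, an F-box protein that brings substrates to an SCF ubiquitin ligase and is best known as a marker of muscle wasting. It was examined here together with 9 genes that act on it or beside it: TRIM63, FOXO1, FOXO3, FOXO4, KLF15, MSTN, PIK3R1, AKT1 and IRS1. The 10 genes were taken by symbol, each represented by its brightest probeset with a single gene symbol. FBXO32 was chosen by these same signals, for its higher level in cultures from deep wounds, so its difference between depths is a description and carries no test. Of the 10 genes, 7 had such a probeset and 3, TRIM63, FOXO4 and PIK3R1, had none and were not analysed here. The 7 stand among 6765 genes named on the array, and 4 of them passed a filter on dim probesets that 5272 named genes passed.

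The cells were dermal fibroblasts grown from wounds on the backs of 2 Duroc pigs, a breed used as a model of cutaneous fibrosis, and biopsied 20 weeks after wounding. One group came from shallow and the other from deep wounds, with 1 array per depth in each pig, and no unwounded skin was compared. Total RNA was taken from confluent cultures in medium with fetal bovine serum and hybridized to a porcine Affymetrix array. The 4 cultures are called shallow 1, shallow 2, deep 1 and deep 2, where the number is that of the pig, and a pair of values given for a depth names pig 1 first. The arrays of a pig were matched by the partner numbers in the sample titles, read in the order of listing. Signals are linear MAS5 intensity units, in which each array had been scaled to one level. Values given for a depth as a mean carry the SD (n = 2). In the main fit each test had 1 residual degree of freedom, against a median of 6.88 prior ones. SEs, intervals and p-values therefore rest mostly on spread borrowed from probesets of similar signal. With so few arrays they speak for these cultures only.

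In muscle, insulin and IGF1 act through IRS1, the PI3-kinase subunit PIK3R1 and the kinase AKT1. AKT1 phosphorylates the FOXO transcription factors and keeps them out of the nucleus. When that signal falls, FOXO proteins enter the nucleus and raise FBXO32 and TRIM63, a second ubiquitin ligase. Glucocorticoids, partly through the transcription factor KLF15, and myostatin, the product of MSTN, act in the same direction. FOXO factors also raise cell-cycle inhibitors and autophagy genes. Much of this control lies in phosphorylation and location of proteins, which an RNA array does not measure.

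FBXO32 messenger RNA was several-fold higher in the deep cultures of both pigs, while no difference in the transcripts of FOXO1, KLF15 or AKT1 passed the test. FOXO1, a factor that switches FBXO32 on, and AKT1, the kinase that restrains it, read within narrow ranges over all 4 arrays. FOXO3, MSTN and IRS1 were not clearly above the controls for absent transcripts. The genes are called here by their symbols.

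The brighter FBXO32 probeset read 130 in shallow 1 and 277 in shallow 2, against 1299.5 in deep 1 and 1089 in deep 2. Both deep arrays lay above both shallow arrays, and the lowest deep signal was 3.94 times the highest shallow signal. The mean was 203 ± 104 in shallow and 1194 ± 149 in deep cultures, a mean log2 difference of 2.65, or 6.28-fold. The deep culture was 10.0-fold higher in pig 1 and 3.94-fold higher in pig 2. This gap came mostly from the shallow arrays, which differed 2.13-fold from each other, while the deep arrays differed 1.19-fold. In bulk cultures a change in the share of cells that make a transcript and a change in its level per cell cannot be told apart.

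A second probeset for FBXO32 was dimmer and gave the same order of arrays. It read 49.5 in shallow 1 and 115 in shallow 2, against 534 in deep 1 and 370 in deep 2. The brighter probeset was 2.62, 2.41, 2.43 and 2.95 times the dimmer one in shallow 1, shallow 2, deep 1 and deep 2, respectively. Both therefore placed the shallow culture of pig 1 lowest and the deep culture of pig 1 highest. The mean log2 difference of the second probeset was 2.56. These probesets were read from the same hybridizations, so their likeness describes the probes and is no second sample.

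**Figure D1:**
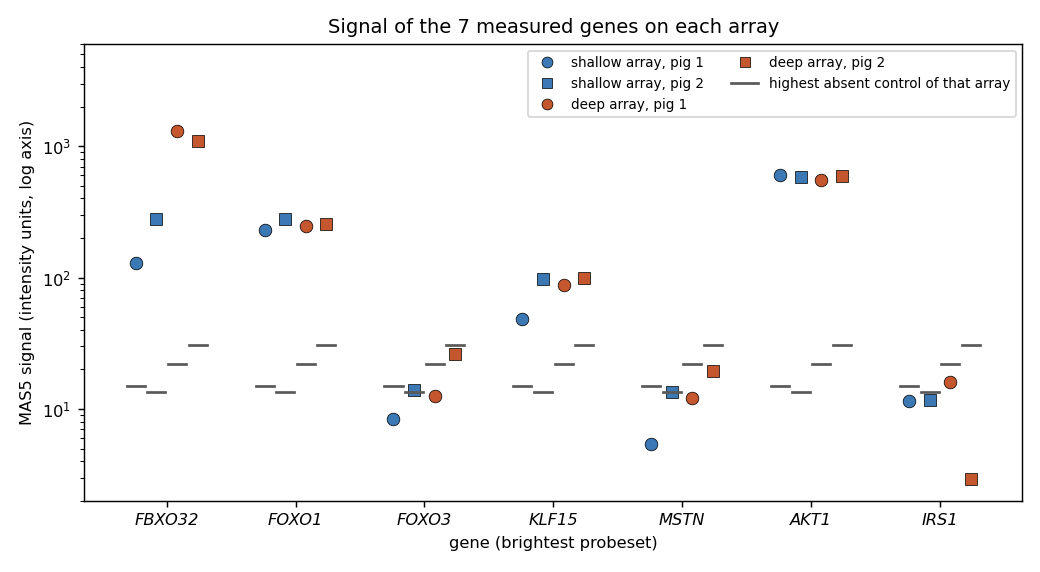
MAS5 signal (log axis) of the 7 genes with a probeset, each by its brightest probeset, on the 2 shallow and 2 deep arrays; circles are pig 1, squares pig 2, and a grey bar is the highest control for absent transcripts on that array. FBXO32 reads 130 and 277 in shallow and 1299.5 and 1089 in deep, FOXO1 and AKT1 are nearly level, and MSTN and IRS1 lie below the grey bar on every array.

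Among the transcription factors, FOXO1 read 229 in shallow 1 and 281 in shallow 2, against 247 in deep 1 and 254 in deep 2. The deep arrays lay between the shallow arrays, so the groups overlapped. The means were 255 ± 37.0 and 250.1 ± 4.99, which differed by -0.02 ± 0.29 (SE) on the log2 scale (limma, adjusted p = 0.986), with a 95% interval of -0.70 to 0.66. Its sign turned under quantile normalization and median centring, at 0.064 and 0.050. An interval this wide does not show equal levels.

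KLF15, the Krüppel-like factor induced by glucocorticoids, read 48.2 in shallow 1 and 98.3 in shallow 2, against 87.2 in deep 1 and 98.9 in deep 2. The shallow array of pig 1 was the low one and the other 3 were close together. The log2 difference was 0.43 ± 0.39 (limma, adjusted p = 0.687), with a 95% interval of -0.48 to 1.34. Without shallow 1 it was -0.08, so the sign rested on that array. The fold was 1.81 in pig 1 and 1.01 in pig 2.

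AKT1, the kinase that inactivates FOXO proteins, read 606 in shallow 1 and 580.3 in shallow 2, against 555 in deep 1 and 597 in deep 2. Its highest signal was 1.09 times its lowest, the narrowest range among the 7 genes. The log2 difference was -0.04 ± 0.27 (limma, adjusted p = 0.967), with a 95% interval of -0.66 to 0.58, and its sign turned under quantile normalization and median centring (0.022 and 0.027). A second AKT1 probeset was dim, between 7.16 and 18.3, and above the absent controls on 1 array.

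Of the 3 genes other than FBXO32 that could be tested, 0 passed an adjusted p of 0.05 by limma, and 0 had an unadjusted p under 0.05. Over all named genes tested, 0.398% passed the adjusted threshold and 15.5% had an unadjusted p under 0.05, so a count of 0 in 3 is near that background. The groups overlapped for all 3, against 52.1% of named genes whose groups did not overlap in either direction. An absolute log2 difference under 0.5 was seen for the same 3 genes and for 67.9% of named genes.

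The 3 remaining genes did not pass the filter on dim probesets, a mean log2 that corresponds to a signal of 27.1, and give no fold. FOXO3, the other FOXO factor on the array, read 8.32 in shallow 1 and 14.0 in shallow 2, against 12.5 in deep 1 and 26.2 in deep 2. It exceeded the highest absent control on 1 of the arrays, that of shallow 2. MSTN, which encodes the muscle growth inhibitor myostatin, read 5.42 and 13.4 in shallow and 12.2 and 19.5 in deep, below that control on every array. IRS1, the insulin receptor substrate, read 11.6 and 11.7 in shallow and 15.9 and 2.92 in deep, also below it on every array. The highest absent control was 14.8, 13.6, 21.8 and 30.9 in shallow 1, shallow 2, deep 1 and deep 2, respectively. Second probesets of FOXO3 and MSTN were dim as well, at most 15.0 and 11.7, and a dim probeset does not show that a transcript is missing.

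The genes whose pattern over the 4 arrays was most like that of FBXO32 were sought among 5271 other named genes. Each gene's log2 signals were centred on their own mean, and likeness was the root-mean-square distance from FBXO32 in log2 units. The 6 nearest were ISG12(A), an interferon-induced gene, at 0.18, ACTG2, smooth muscle gamma actin, at 0.22, and AGT, angiotensinogen, at 0.26. GLIPR1 at 0.30, the complement protease C1S at 0.32 and the adrenergic receptor ADRA2A at 0.36 followed. The second FBXO32 probeset lay at 0.12, and the median over the named genes was 1.41. The distance rests on 4 arrays, and a gene near FBXO32 must share the rise that chose it, so no test goes with it.

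ISG12(A) read 364 in shallow 1 and 655 in shallow 2, against 4351 in deep 1 and 2940.0 in deep 2. ACTG2 read 492 and 717 in shallow, and 4269 and 2914 in deep. C1S read 594 and 1838 in shallow, and 4689 and 4849 in deep. As with FBXO32, the lowest signal of each of these 3 was in shallow 1. For ISG12(A) and C1S the shallow arrays also lay further apart in fold than the deep arrays. AGT and ADRA2A were dim in shallow cultures, at 13.8 and 27.8 for AGT and 8.57 and 20.8 for ADRA2A, and each was below the highest absent control in shallow 1. In order of log2 difference among named genes FBXO32 was number 16, between AGT at 2.66 and ACTG2 at 2.57.

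**Figure D2:**
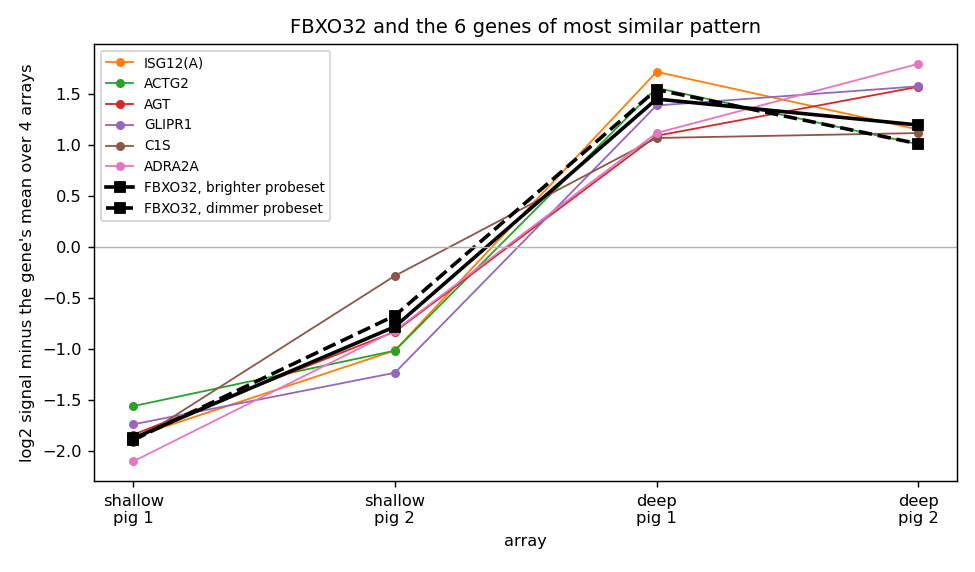
Log2 signal minus each gene's own mean over the 4 arrays, for both FBXO32 probesets (black) and the 6 named genes nearest to the brighter one. All 8 profiles have both shallow arrays below and both deep arrays above the mean, and the distances run from 0.12 for the dimmer FBXO32 probeset to 0.36 for ADRA2A.

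Some measures of the arrays and of cell types moved with depth beside FBXO32. Actin probes at the 3' and 5' ends give a ratio that tracks RNA integrity and labelling. This 3' to 5' ratio was 1.96 and 2.41 in shallow cultures and 3.28 and 6.10 in deep cultures. It was higher on both deep arrays than on both shallow arrays, so on these 4 arrays it cannot be told apart from depth. The GAPDH 3' to 5' ratio split the depths likewise, at 1.53 and 1.67 in shallow and 1.75 and 2.06 in deep cultures. So did the 28S ribosomal RNA signal, at 1350 and 1830 in shallow and 3388 and 7467 in deep cultures. With the actin ratio as a covariate in place of the pig, the FBXO32 log2 difference was 2.54. The part of RNA integrity or labelling in that difference was not tested. The actin ratio followed depth, so that fit was less precise. The SE of CDKN1A was 0.49 there against 0.27 in the main fit, and that of FOXO1 0.57 against 0.29. No value from it gives the part of RNA integrity for any gene. Epithelial markers stood high in shallow 1 alone, with a summed signal of 5991 over 8 genes against 170 to 334 on the other arrays. Of the 5 epithelial genes past the filter the largest log2 differences were those of SFN (-4.23 ± 0.75), the cadherin CDH1 (-3.26 ± 1.06) and the adhesion molecule EPCAM (-2.05 ± 1.20), none called. These sizes rest on shallow 1, since on the other arrays CDH1 was below the absent controls and EPCAM was above them in deep 1 alone. SFN read 37.0 in shallow 2, 23.1 in deep 1 and 6.81 in deep 2, and differed by -1.56 without shallow 1. Its deep 2 signal was below the highest absent control of that array, 30.9, so neither SFN difference is a measured size. Without shallow 1 the FBXO32 log2 difference was 2.10, and without shallow 2 it was 3.20. From shallow 2 and deep 1 alone, arrays of different pigs with the nearest actin ratios between the depths, the FBXO32 difference was 2.23. Their ratios, 2.41 and 3.28, still differed. Since FBXO32 was chosen for a rise in which the depths did not overlap, any such pair gives a rise. The value from this pair is therefore no test of RNA integrity. The smallest FBXO32 difference between a shallow and a deep array was 1.98, within pig 2.

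Because FBXO32 is a muscle gene, markers of skeletal muscle were read as well. Of 20 listed, 13 were on the array, 0 passed the filter, and 9 were above the absent controls on no array. The myosin MYH7 was above them on all 4, at 20.4 and 17.3 in shallow and 28.2 and 35.7 in deep, and DES on 3. The myogenic factors MYOD1 and MYF5 read at most 6.59 and 7.52. The summed signal of the 13 was 102 and 140 in shallow and 143 and 249 in deep, and the intermediate filament DES read 15.6 and 9.67 in shallow and 25.6 and 55.9 in deep. Among 5 smooth muscle and pericyte markers 1, ACTG2, was called higher (limma, adjusted p = 0.0351), against 0.303% of named genes. That call was lost in 7 of 12 alternatives, among them no pig block (limma, adjusted p = 0.0669), no filter (0.210), and leaving out deep 1 (0.164) or deep 2 (0.628). The other 4 were not called, and of these CNN1, calponin, differed by 1.29 ± 0.34 and RGS5, a pericyte gene, by 0.63 ± 0.55. Their summed signal, mostly ACTG2, was 1133 and 1445 in shallow and 5181 and 3686 in deep. The part of other cell types in the FBXO32 difference was not tested.

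All 8 fibroblast markers on the array were above the absent controls on all 4 arrays, as the label of the cells requires, and both deep arrays lay above both shallow arrays for each of the 8, against 23.7% of named genes. None was called by limma, and the largest log2 differences were those of THY1 (1.98 ± 0.44), FAP (1.07 ± 0.29) and COL3A1 (1.01 ± 0.46). The COL3A1 probeset was dim, at 26.7 and 19.4 in shallow and 47.7 and 44.4 in deep. The median of the 8 was 0.98, or 0.66 under quantile normalization, where VIM changed sign. The summed signal of the 8 was 24486 and 30104 in shallow and 40958 and 56649 in deep. Of 7 adipocyte, 7 endothelial, 5 leukocyte and 3 melanocyte markers on the array, 2, 3, 1 and 1 passed the filter and none was called by limma. CEBPA and LEP differed by 1.26 ± 0.40 and 0.30 ± 0.44, the endothelial CLDN5, ESAM and PECAM1 by -1.78 ± 0.43, 0.44 ± 0.47 and -0.27 ± 0.50, CD14 by 0.33 ± 0.42 and MITF by 0.61 ± 0.60. CLDN5 read 16.2 in deep 2, below the highest absent control of that array, 30.9, so its difference is not a measured size. Summed signals were 153 to 218 for adipocytes, 285 to 769 for endothelium, 88.5 to 142 for leukocytes and 46.6 to 80.9 for melanocytes.

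**Figure D3:**
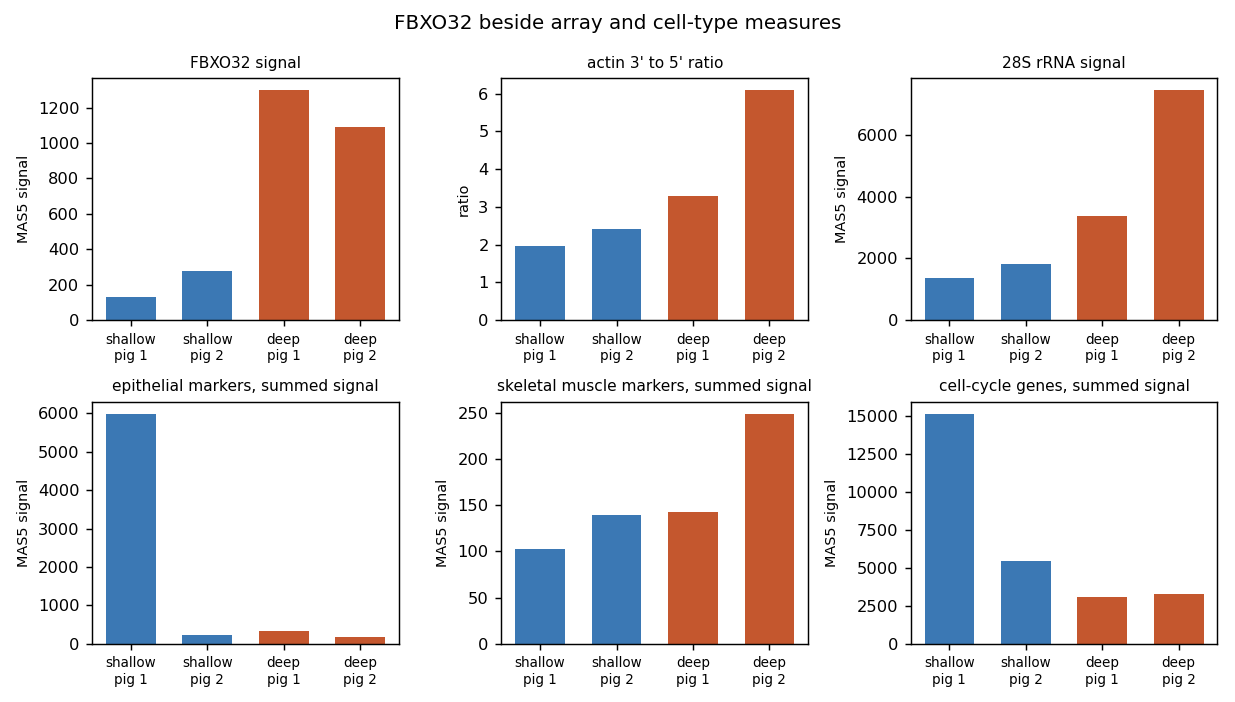
FBXO32 signal, the actin 3' to 5' ratio, the 28S ribosomal RNA signal and the summed signals of epithelial, skeletal muscle and cell-cycle genes on each array (linear axes from 0; blue shallow, orange deep). FBXO32, the actin ratio and the 28S signal are higher on both deep arrays than on both shallow arrays. The actin ratio and 28S signal are highest in deep 2, and epithelial markers reach 5991 in shallow 1 alone.

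The wider pathway was read through 9 gene lists that hold 159 genes, of which 99 were on the array and 84 passed the filter. By limma 0 of the 84 passed the adjusted threshold (smallest adjusted p = 0.0818, for CAT) and 15 had an unadjusted p under 0.05, a share close to the 15.5% of named genes. Both deep arrays were above both shallow arrays for 32 genes and below for 10, against 23.7% and 28.4% of named genes. The median log2 difference was 0.20, beside -0.04 over named genes. None of these lists was tested as a set, and the differences below are values that did not pass the threshold over all probesets.

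Upstream of FOXO, 9 genes of the insulin, PI3-kinase and AKT list had a median log2 difference of 0.25, whose sign turned without deep 2 (-0.09) and with the actin ratio (-0.26), and which was 0.58 without deep 1 and 0.10 without shallow 2. The largest belonged to ligand and receptor. IGF1, the growth factor that activates AKT, read 56.5 and 157 in shallow and 448 and 255 in deep (1.85 ± 0.51, limma, adjusted p = 0.172), and 1.11 without shallow 1. IGF1R, its receptor, read 111 and 144 in shallow and 210.4 and 274 in deep (0.93 ± 0.31). In both genes both deep arrays lay above both shallow arrays. This held for 3 of the 9 listed genes and the reverse for 1, against 23.7% and 28.4% of named genes. TSC2, which restrains mTOR, differed by 0.60 ± 0.41, and the second AKT isoform AKT2 by 0.25 ± 0.34.

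The myostatin and activin list, 10 genes, had a median of -0.07. Its largest difference was that of FST, follistatin, which binds and blocks myostatin and activin, at -1.97 ± 1.17. FST read 3496 in shallow 1 and 85.7, 98.3 and 200 on the other arrays, and its difference was 0.71 without that array. DCN, decorin, a proteoglycan that also binds myostatin, differed by 0.79 ± 0.30, or 0.19 under quantile normalization, and GDF11, a ligand close to myostatin, by 0.53 ± 0.42.

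Glucocorticoid targets, 13 genes, had a median of 0.39 that was 0.12 without shallow 1. TSC22D3, the glucocorticoid-induced leucine zipper, read 162 and 648 in shallow and 689 and 572 in deep (0.95 ± 0.49), and -0.05 without that array. CEBPD, a C/EBP transcription factor, differed by 0.77 ± 0.33, or 0.12 without shallow 1 and 0.14 with the actin ratio. PDK4, a mitochondrial kinase raised by FOXO factors and glucocorticoids, read 277 and 842 in shallow and 339 and 117 in deep (-1.28 ± 0.63), with opposite signs in the pigs. As with KLF15, the low value of TSC22D3 and CEBPD was that of shallow 1. Of the 13 genes 5 were higher and 1 lower in deep without overlap, against 23.7% and 28.4% of named genes. The lower one was GLUL, at 1225 and 1139 in shallow and 838 and 595 in deep (-0.74 ± 0.27).

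FOXO targets of growth arrest and cell death, 11 genes, had a median of 0.36, with 5 higher and 1 lower in deep without overlap, against 23.7% and 28.4% of named genes. The median was 0.18 without shallow 1 and 0.21 without deep 1. CDKN1A, the cyclin-dependent kinase inhibitor p21, read 1376 and 2353 in shallow and 3350.5 and 6567 in deep (1.38 ± 0.27, limma, adjusted p = 0.0826). Its difference was 0.90 without deep 2, and 0.09 ± 0.49 once the actin ratio replaced the pig. The antiproliferative gene BTG1 differed by 0.73 ± 0.28, or 0.34 under quantile normalization, and the stress gene GADD45A by 0.60 ± 0.26. CDKN1B, the inhibitor p27 and a textbook FOXO target, went the other way in pig 2 and read 586 and 1189 in shallow and 840 and 452 in deep (-0.44 ± 0.43).

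FOXO targets of stress defence and metabolism, 9 genes, had a median of 0.0042. Within it SELENOP, a selenium carrier, read 187 and 181 in shallow and 470 and 547 in deep (1.46 ± 0.29, limma, adjusted p = 0.0826). The peroxide-degrading enzyme CAT read 899 and 1161 in shallow and 2030 and 3808 in deep (1.44 ± 0.28, limma, adjusted p = 0.0818). With the actin ratio as covariate the CAT difference was 0.36 ± 0.47. For both genes both deep arrays lay above both shallow arrays, and CAT was highest in deep 2. Such an order was seen for 3 of the 9 genes, against 23.7% of named genes.

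The autophagy list, 11 genes, had a median of 0.51, and in 8 of the 11 the lower deep signal exceeded the higher shallow one, against 23.7% of named genes. Its median was 0.33 without deep 1 and 0.35 with the actin ratio. SQSTM1, the cargo receptor p62, read 1473 and 3147 in shallow and 4718 and 5580.2 in deep (1.25 ± 0.31, limma, adjusted p = 0.140). CTSB, the lysosomal protease cathepsin B, differed by 1.15 ± 0.29 and GABARAPL1, an ATG8-family protein and known FOXO target, by 1.03 ± 0.33. CTSB was 0.54 under quantile normalization and 0.17 ± 0.43 with the actin ratio, where SQSTM1 was 0.62 ± 0.66. For each of these shallow 1 was the lowest, and without it the list's median was 0.29 and the differences of SQSTM1 and GABARAPL1 were 0.71 and 0.58. The list's summed signal was 16052 and 24230 in shallow and 30986 and 38687 in deep.

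Genes that share the biochemistry of FBXO32 lay on both sides of 0. The other ubiquitin ligases and ubiquitin genes of atrophy, 8 genes, had a median of -0.03. UBB, a ubiquitin gene, differed by 0.73 ± 0.31 and turned to -0.10 under quantile normalization, and the F-box gene FBXO31 differed by -0.70 ± 0.31. MUL1, a mitochondrial ligase, differed by -0.38 ± 0.41, and by 0.38 without deep 2. Subunits of the SCF complex and other F-box genes, 11 genes, had a median of -0.19. Its largest differences were those of CKS2 (-1.42 ± 0.42) and CKS1B (-1.04 ± 0.34), small proteins that bind cyclin-dependent kinases, which were -0.67 and -0.45 without shallow 1, and FBXO9 differed by -0.54 ± 0.29. CUL1, the scaffold on which FBXO32 works, read 547 and 635 in shallow and 725 and 732 in deep (0.31 ± 0.27).

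Of 10 listed FBXO32 substrates 5 passed the filter, with a median of 0.02. VIM, vimentin, differed by 0.75 ± 0.34 and turned to -0.09 under quantile normalization. The transcription factor MYC differed by -0.58 ± 0.47, and by 0.46 without shallow 1, and the calcineurin subunit PPP3CA by 0.54 ± 0.29. Protein levels of substrates were not measured.

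Cell-cycle genes were read beside these because of the name of the set. Of 15 past the filter 14 had both deep arrays below both shallow arrays, against 28.4% of named genes, and the median log2 difference was -2.15. By limma 0 of the 15 passed and 13 had an unadjusted p under 0.05, against 0.398% and 15.5% of named genes. The largest differences were in RRM2 (-2.75 ± 0.50), PLK1 (-2.60 ± 0.60) and CDC20 (-2.51 ± 0.62). PLK1 was below the absent controls on both deep arrays, so its size there is not a measured level. The summed signal was 15145 and 5434 in shallow and 3099 and 3263 in deep, and without shallow 1 the median was -1.29, with RRM2 at -1.68, PLK1 at -1.60 and CDC20 at -1.63.

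**Figure D4:**
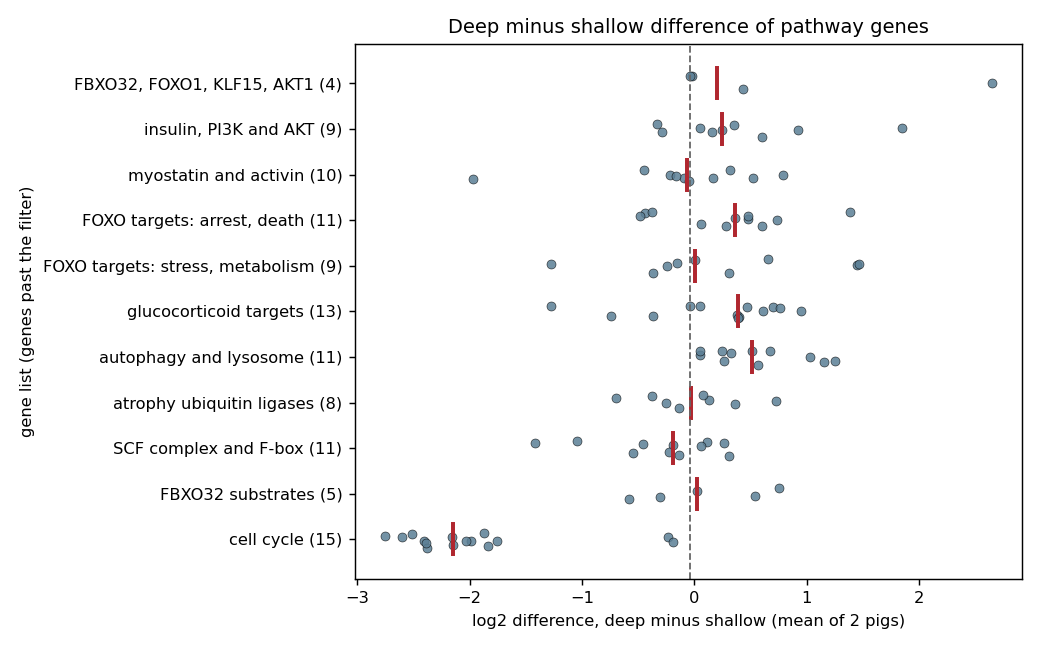
Log2 difference, deep minus shallow, of each gene past the filter in the set examined (top row) and in the pathway lists (points, vertical jitter for view only), with each list's median (red bar) and the median over named genes (dashed line at -0.04). FBXO32 lies alone at 2.65 in the top row, the autophagy list has a median of 0.51, and the cell-cycle list lies at -2.15.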

How the data were processed

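The authors deposited linear signal intensities for 24123 probesets, without detection calls; the submitters' processing notes name MAS5 and GCOS 1.0. The mean without the top and bottom 2% was 250.1 on each array; no scaling target was stated. The 124 control probesets were left out, and 23 of them for absent transcripts served as background. Signals under 1 were set to 1 and taken to log2, and probesets at or above the 40th percentile of mean log2 were tested, 14399 in all. By the platform annotation 10069 probesets had 1 symbol, 198 had several and 13732 had none.

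The depths were fitted in limma 3.58.1 (R 4.3.3; lmFit, eBayes) with the pig as a block and a trended prior variance, Benjamini-Hochberg adjusted over all tested probesets, after a check on simulated data. The pairing comes from the series' design; deviations of same-pig arrays correlated at -0.01. Over all probesets 34 were called higher and 15 lower in deep. The members and lists were chosen with earlier results of these data known. Named were the genes with a probeset, the 3 largest absolute differences and any called gene of each pathway and marker list, the 6 genes nearest to FBXO32 and its neighbours in order. AKT2, CDKN1B, CUL1 and GLUL were added after their values were seen. Alternatives were other scaling, floor, filter, covariate, probeset and trend, no block, and leaving out each array.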

Additional observations from a re-analysis of the deposited data

How the results depend on the processing

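The FBXO32 difference ran from 2.10 to 3.20 with 1 array left out and kept its direction under every setting run. FBXO32 was chosen for this rise and its groups did not overlap, so the kept direction is no support for it. The count of members other than FBXO32 that passed was 0 under all of them. The count of probesets called by limma, 49, was 96 with quantile normalization, 5 with arrays centred on their medians, 217 with the 60th percentile filter and 3 without the trend. It was 0 without the replicate block, 0 without the filter and 0 with the actin ratio as covariate, where 1885, 2246 and 283 had an unadjusted p under 0.05. With 1 array left out it ran from 0 to 1597, in fits that also drop the pig block, so that 0, not 49, is the count on 4 arrays to set them against, and in which a depth with 1 array borrows its spread from the other. The count of pathway genes called, cell-cycle genes included, was 0 and became 8 with the 60th percentile filter and 0 to 29 with 1 array left out. The split of unadjusted p under 0.05 was 999 higher and 996 lower, and 1206 and 788 with arrays centred on their medians.

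Signs that turned belonged to differences that had not passed. With quantile normalization these were FOXO1 (0.064), AKT1 (0.022), UBB (-0.10) and VIM (-0.088), and with median centring FOXO1 (0.050) and AKT1 (0.027). With the actin ratio they were KLF15 (-0.12), TSC2 (-0.26), UBB (-0.14), MUL1 (1.25), VIM (-0.22) and MYC (0.061). With 1 array left out FOXO1 ran from -0.17 to 0.13, KLF15 from -0.082 to 0.95, AKT1 from -0.095 to 0.0087, MUL1 from -1.13 to 0.38 and MYC from -1.62 to 0.46. TSC22D3 ran from -0.046 to 1.95 and FST from -4.64 to 0.71. Among marker genes the actin ratio turned CDH1 (0.44), EPCAM (2.14), LEP (-0.023), ESAM (-0.97), PECAM1 (0.070), CD14 (-1.16), RGS5 (-0.56) and MITF (-0.58). With 1 array left out CDH1 ran from -6.59 to 0.075, EPCAM from -5.89 to 1.79, ESAM from -0.18 to 1.07, PECAM1 from -1.26 to 0.72, CD14 from -0.25 to 0.91, RGS5 from -0.74 to 1.99 and MITF from -0.077 to 1.30. Without shallow 1, CDH1 and EPCAM lie mostly below the absent controls, so those ends are not measured sizes. List medians were read over the scalings, the floor, the actin ratio and 1 array left out. Pathway medians that took both signs ran from -0.26 to 0.58 (insulin), -0.07 to 0.05 (myostatin), -0.04 to 0.36 (stress defence), -0.25 to 0.07 (atrophy ligases) and -0.10 to 0.46 (substrates). So did those of FBXO32, FOXO1, KLF15 and AKT1 together (-0.12 to 0.54), epithelial markers (-5.89 to 0.44) and endothelial markers (-1.26 to 0.31). The leukocyte and melanocyte medians are CD14 and MITF alone. The ACTG2 call was also lost with median centring (limma, adjusted p = 0.0575), without the trend (0.130) and with the actin ratio (1.00). The cause was not tested. Signals near the absent controls limit FOXO3, MSTN and IRS1. Alternatives for single pathway and marker genes and the pair of arrays with the nearest actin ratios were added after seeing the data.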
